A study of Mus musculus with 8 samples.

Results

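The 39 genes described here are interferon-stimulated antiviral genes and the STAT and IRF transcription factors that act on them. They were chosen by symbol as type I interferon response genes and their regulators, and all 39 were found among the 23929 gene symbols of the series, each as a single entry with a valid estimate in every library. The series holds 8 RNA-seq libraries of mouse pro-B lines, 4 lines in all. Pro-B cells are early B lineage cells that rearrange their immunoglobulin heavy chain (IgH) locus, and the series asks how elements of that locus act. Every line is of strain 129SV and bone marrow origin, and all were cultured untreated in RPMI with serum, with no interferon or infection named in the labels. The WT line is labelled wild type. CBE line 1 and CBE line 2 carry the genotype label IGCR1-/- and the title label CBE-/-, for loss of the CTCF-binding elements of an intergenic control region of the IgH locus. The Eµ-deleted line is labelled Eµ-/-, for loss of the enhancer in the intron of the IgH locus. There were 2 libraries a line. Whether the pair came from separate cultures, or whether a line is 1 clone, is not in the labels, and the spread behind each p-value may therefore be technical. With 1 WT line and 1 Eµ-deleted line, genotype and line cannot be told apart, and the deletions were not checked in these values.

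Type I interferons bind a receptor made of Ifnar1 and Ifnar2, whose kinases activate Stat2. Together with Irf9 it acts in a complex that binds interferon-stimulated response elements in promoters and switches on genes that sense viral RNA, degrade it, block its translation or hold back viral particles. Many of these genes also keep a low level of transcription in cells that have met no virus, through autocrine interferon and through IRF factors.

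The levels below are FPKM, fragment numbers divided by transcript length and library size. Implied depth was 31.3 to 49.5 M reads, and WT replicate 1 was the deepest library. A gene was tested when it had an FPKM of 1 or more in at least 2 libraries, as did 10479 genes. Differences are log2 differences of FPKM + 1 with their standard error (SE), which understate the change of low genes. A gene was called at a limma adjusted p (Benjamini-Hochberg over all tested genes) under 0.05. In bulk samples, a lower level in each cell and fewer cells with the transcript cannot be told apart. Of the 39 members, 22 were tested and 17 lay below the filter, and 9 had a mean of 10 FPKM or more. All comparisons with WT share its 2 libraries. The pro-B markers were abundant, with 10 of 10 tested and summed levels of 4028 to 5704 FPKM. All 5 stromal markers were at or below 0.0273 FPKM and all 5 plasmacytoid dendritic cell markers at or below 0.332 FPKM. The latter summed to 0.106 to 0.352 FPKM (WT), 0.141 to 0.208 (CBE line 1), 0.0794 to 0.124 (CBE line 2) and 0.0213 to 0.0314 (Eµ-deleted). Several members below the filter were at similar or lower levels in WT.

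**Figure D1:**
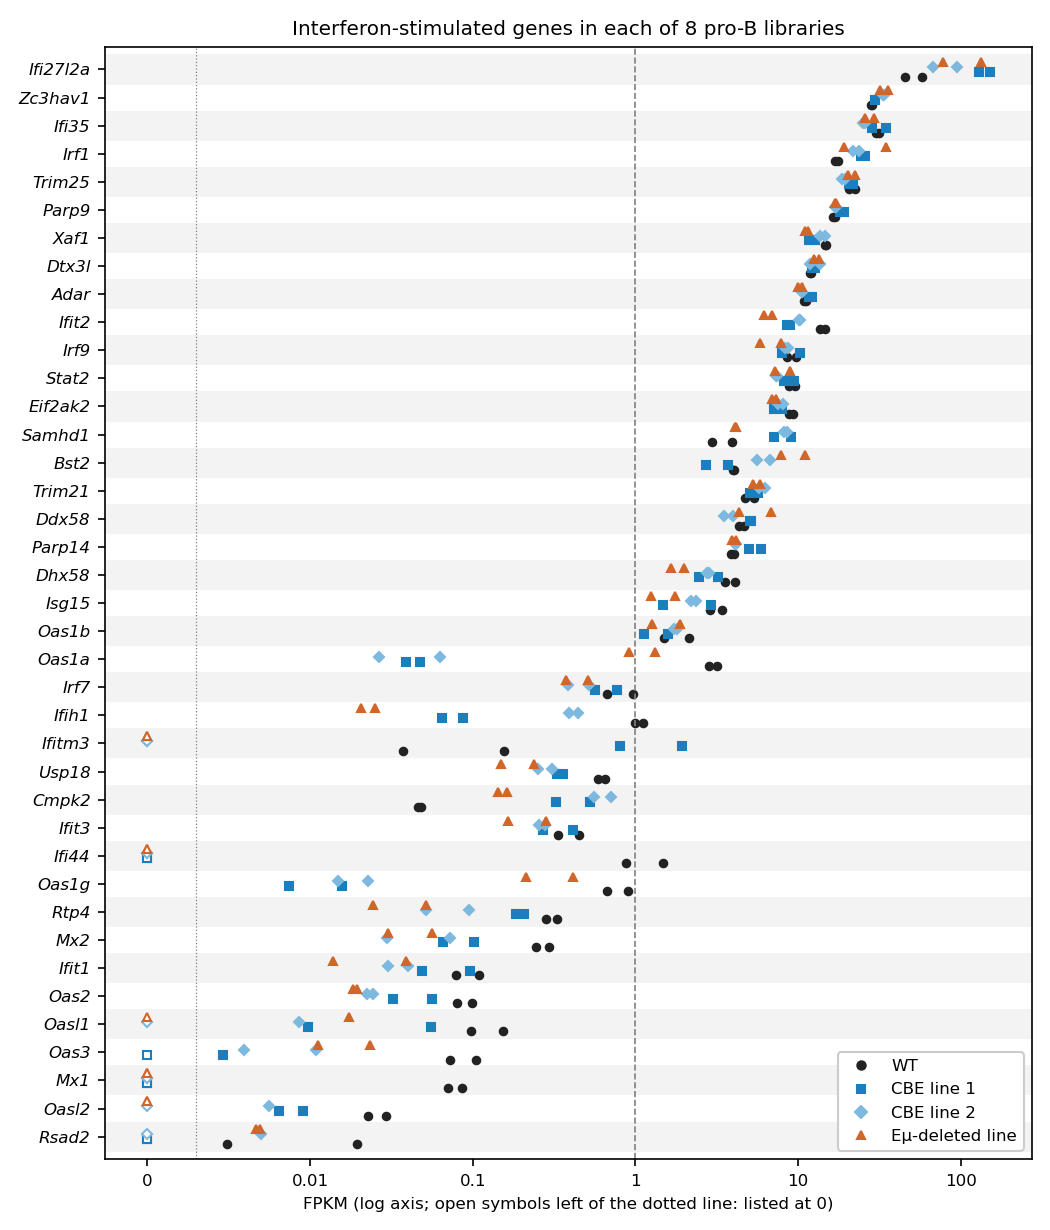
FPKM of the 39 members in each of the 8 libraries on a log axis, ordered by mean level, with the line given by symbol and values listed at 0 drawn as open symbols on the left. The tested members, except Oas1a in the CBE lines, lie above about 1 FPKM and mostly overlap between lines. In the lower part of the plot the WT libraries lie to the right of the other lines for most genes.

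Promoters of 3 members that hold the interferon-stimulated response element core are shown from the RefSeq promoter table (GRCm38.p6, 250 bases before to 50 bases after the start). They are examples chosen after their values were seen: Oas1a was lower than WT in both comparisons, Ifi44 was listed at 0 in every mutant library and Bst2 was higher in the Eµ-deleted line. Other members with the core, Ifih1, Oas1g, Oas3 and Ifitm3 among them, are not printed. Capitals mark matches to GAAANNGAA or, for the other strand, its reverse complement TTCNNTTTC. Oas1a lies at chr5:120907476-120907775 (minus strand), Ifi44 at chr3:151749861-151750160 (minus strand) and Bst2 at chr8:71537423-71537722 (minus strand). In Oas1a and in Bst2 a pair of matches overlap.
Oas1a: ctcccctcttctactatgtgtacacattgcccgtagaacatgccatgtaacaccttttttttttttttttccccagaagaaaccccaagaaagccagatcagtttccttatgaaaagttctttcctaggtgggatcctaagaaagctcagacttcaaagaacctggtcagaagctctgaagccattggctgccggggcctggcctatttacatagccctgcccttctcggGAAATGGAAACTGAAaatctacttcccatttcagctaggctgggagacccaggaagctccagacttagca
Ifi44: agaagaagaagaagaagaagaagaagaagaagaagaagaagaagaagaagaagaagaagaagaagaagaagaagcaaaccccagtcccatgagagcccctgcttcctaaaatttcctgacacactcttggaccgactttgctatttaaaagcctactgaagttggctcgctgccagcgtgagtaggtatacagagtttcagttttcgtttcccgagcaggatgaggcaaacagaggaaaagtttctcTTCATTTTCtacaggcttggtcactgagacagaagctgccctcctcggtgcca
Bst2: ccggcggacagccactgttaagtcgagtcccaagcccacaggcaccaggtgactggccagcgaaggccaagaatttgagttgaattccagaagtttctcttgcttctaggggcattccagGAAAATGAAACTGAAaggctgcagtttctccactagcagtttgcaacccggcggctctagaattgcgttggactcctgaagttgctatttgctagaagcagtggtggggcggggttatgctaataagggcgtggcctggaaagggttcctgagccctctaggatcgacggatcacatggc
Among the 29 members in that table, 17 (58.6%) had at least 1 match on either strand, against 9.76% of 27025 genes. The gamma-activated site core TTCNNNGAA, which reads the same on both strands, was present in 9 of 29 members (31.0%), against 9.55% of genes. By expression, 9 of the 17 tested members with a promoter and 8 of the 12 members below the filter with a promoter held GAAANNGAA. A match is a description of the letters, not a measured binding site.

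The members with higher expression moved in both directions and most passed no test, with the highest line mean in WT for 10 of 22, against 26.3% of all tested genes. Of the 17 members below the filter 15 had their highest line mean in WT, against 32.5% of all genes below it with some expression. Against WT, the joint CBE lines showed 2 of 22 tested members higher (Samhd1 and Ifi27l2a) and 2 lower (Oas1a and Ifit2). Over all tested genes 12.5% were higher and 9.78% lower, so the members' shares were near the background. The median log2 difference was -0.04 over the tested members and 0.03 over all tested genes. In CBE line 1 taken singly, 3 members were higher and 2 lower (10.9% and 8.54% of all tested genes), Parp14 being the additional one. In CBE line 2 taken singly, 1 was higher and 2 lower (10.5% and 8.19%). The Eµ-deleted line showed 1 of 22 higher (Bst2) and 4 lower (Ifit2, Oas1a, Dhx58 and Xaf1), where 11.3% and 10.4% of all tested genes were called, with a median of -0.06 against 0.01 over all genes.

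None of the 3 tested members that are transcription factors of the interferon response was called in any comparison with all 8 libraries. Stat2 was at 7.18 to 9.53 FPKM over the 8 libraries, and Irf9, the DNA-binding partner of Stat2, at 5.86 to 10.3 FPKM, and in both the WT libraries overlapped the mutant ones. Irf1, which is itself induced by interferon gamma, was at 16.7 and 17.5 FPKM (WT), 24.2 and 25.9 (CBE line 1), 21.8 and 23.6 (CBE line 2) and 19.1 and 34.9 (Eµ-deleted). Both WT libraries lay below all 6 others, but the differences were not called (0.46, SE 0.21, limma adjusted p = 0.183 for the CBE lines and 0.57, SE 0.25, limma adjusted p = 0.149 for the Eµ-deleted line). The Eµ-deleted pair spread widely and enters the spread shared by all lines. Irf1 was called higher than WT in the CBE lines when either Eµ-deleted library was left out. In the Eµ-deleted line it was called higher without Eµ-deleted replicate 1. Irf7, the amplifier of type I interferon transcription, lay below the filter at 0.376 to 0.969 FPKM, with its highest line mean in WT.

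Of the RNA sensors and the RNA-acting enzymes, 5 of 6 were tested. Dhx58, the regulator of RIG-I-like receptors known as LGP2, was at 4.09 and 3.53 FPKM (WT), 2.46 and 3.20 (CBE line 1), 2.83 and 2.76 (CBE line 2) and 1.65 and 1.99 (Eµ-deleted). Its libraries separated into WT, then the CBE lines, then the Eµ-deleted line, with no overlap between these groups. The fall in the Eµ-deleted line against WT was called (-0.77, SE 0.13, limma adjusted p = 0.00813), but not without WT replicate 1 (0.0729). In the CBE lines the difference was -0.34 (SE 0.11, limma adjusted p = 0.0812). Eif2ak2, the double-stranded RNA kinase PKR, was at 9.30 and 8.84 FPKM in WT and at 6.95 to 8.06 in the other 6 libraries, with no overlap. Its differences were small and not called (-0.22, limma adjusted p = 0.116 for the CBE lines, and -0.31, limma adjusted p = 0.0652 for the Eµ-deleted line). With the replicate number as a block, both were called (0.0495 and 0.0252). Ddx58 (RIG-I, 3.5 to 6.77 FPKM), the RNA-editing enzyme Adar (10.0 to 12.1) and the antiviral zinc-finger protein Zc3hav1 (27.9 to 35.7) were not called in any comparison with all libraries. Both WT libraries were lowest for Zc3hav1. Without Eµ-deleted replicate 1, Ddx58 and Zc3hav1 were called higher in the Eµ-deleted line than in WT. Ddx58 was then also called higher there than in the CBE lines.

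Ifih1 (MDA5, the sensor of long double-stranded RNA) lay just below the filter and showed the widest range of the sensors. It was at 0.994 and 1.12 FPKM (WT), 0.0648 and 0.0872 (CBE line 1), 0.388 and 0.443 (CBE line 2) and 0.0253 and 0.0205 (Eµ-deleted). All 4 lines were separate, and the CBE lines differed from each other. In implied reads summed over a line's libraries WT had 684, CBE line 1 had 46, CBE line 2 had 239 and the Eµ-deleted line had 11. The ratio of mean FPKM in WT to the line was 13.9 for CBE line 1 (95% counting interval 9.97 to 18.5), 2.54 for CBE line 2 (2.04 to 2.76) and 46.2 for the Eµ-deleted line (28.2 to 102). Such exact binomial intervals rest on the reads of the lines compared, so they cover counting error only and need not be centred on the ratio of means.

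Several, though not all, oligoadenylate synthetase family members make the second messenger that activates RNase L. Oas1a was at 3.15 and 2.82 FPKM (WT), 0.0471 and 0.0390 (CBE line 1), 0.0264 and 0.0631 (CBE line 2) and 1.32 and 0.918 (Eµ-deleted). The lines did not overlap except that both CBE lines were equally near 0, with 1.56 to 6 implied reads a library. It passed the filter through WT and 1 Eµ-deleted library. The falls were -1.93 in the CBE lines (SE 0.099, limma adjusted p = 3.30e-05) and -0.92 in the Eµ-deleted line (SE 0.11, limma adjusted p = 0.00213), and each was called in all 8 fits that left out 1 library. The Eµ-deleted line was above the CBE lines by 1.01 (SE 0.099, limma adjusted p = 0.000997).

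Oas1g followed the same order of lines at a lower level. It was at 0.902 and 0.667 FPKM (WT), 0.00740 and 0.0157 (CBE line 1), 0.0149 and 0.0229 (CBE line 2) and 0.413 and 0.212 (Eµ-deleted). These came from 213 implied reads in WT, 2 in each CBE line and 64 with Eµ deleted, a ratio of WT to CBE line 1 of 67.8 (95% counting interval 26.3 to 800) and to the Eµ-deleted line of 2.51 (2.05 to 3.65). Oas1a and Oas1g are neighbours (mm9 chromosome 5, 121346265 to 121357534 and 121326150 to 121337607) and near-copies. Of the 75-base windows of GENCODE transcripts of Oas1a, 47.6% also occur in Oas1g, and 36.9% of those of Oas1g occur in Oas1a, so reads could have been split between them and their values are not independent. Oas1b (mm9 chromosome 5, 121262643 to 121274169), which shares no such window with any other gene, was at 1.13 to 2.14 FPKM with overlapping lines and was not called in any comparison.

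The other OAS genes were near the limit of detection. Oas3 was at 0.105 and 0.0729 FPKM in WT and at 0 to 0.0235 in the other 6 libraries. Oas2 was at 0.0994 and 0.0804 FPKM in WT and at 0.0183 to 0.0564 in the others. Both WT libraries were highest for these genes and for Oasl1 (0.0976 and 0.153 FPKM, against 0 to 0.0551) and Oasl2 (0.0226 and 0.0295, against 0 to 0.00903), the last from 11 implied WT reads.

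The IFIT proteins bind viral RNA and block its translation. Ifit2 was at 14.6 and 13.6 FPKM (WT), 8.96 and 8.51 (CBE line 1), 10.3 and 10.1 (CBE line 2) and 6.18 and 6.95 (Eµ-deleted). No library of one line overlapped another line. The falls were -0.53 in the CBE lines (SE 0.084, limma adjusted p = 0.00495) and -0.996 in the Eµ-deleted line (SE 0.097, limma adjusted p = 0.000717). The first was not called without WT replicate 1 (0.0724), while the second was called in all 8 fits that left out 1 library. Taken singly, the CBE line 2 difference (-0.43, limma adjusted p = 0.0235) was called in 4 of these 8 fits, and was lost without either WT or either CBE line 2 library (largest 0.177). Its neighbours on chromosome 19 were far lower. Ifit1 was at 0.0138 to 0.109 FPKM and Ifit3 at 0.164 to 0.448 FPKM. In both, WT overlapped CBE line 1 but lay above every CBE line 2 and Eµ-deleted library. For Ifit1 the ratio of WT to CBE line 1 was 1.3 (counting interval 0.77 to 2.51). It was 2.67 to CBE line 2 (1.64 to 10.2) and 3.59 to the Eµ-deleted line (1.8 to 12.7). In the same order, Ifit3 had 1.14 (0.944 to 1.75), 1.47 (1.11 to 2.19) and 1.76 (1.33 to 2.77). The intervals cover counting error only. Neither gene was called, and 41.1% of the windows of Ifit3 are shared with Ifit3b.

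The Mx GTPases trap viral nucleocapsids. Mx1 was at 0.0862 and 0.0703 FPKM in WT, from 17 and 9 implied reads, and was listed at 0 in all 6 other libraries. Against the level of 3 reads in a library, WT was at least 3.25-fold higher than CBE line 1, 3.42-fold higher than CBE line 2 and 3.39-fold higher than the Eµ-deleted line. Mx2 was at 0.247 and 0.293 FPKM in WT and at 0.0295 to 0.102 in the others, a ratio of WT to the line of 3.22 for CBE line 1 (95% counting interval 2.22 to 6.31), 5.30 for CBE line 2 (3.47 to 14.5) and 6.26 for the Eµ-deleted line (4 to 19.8).

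**Figure D2:**
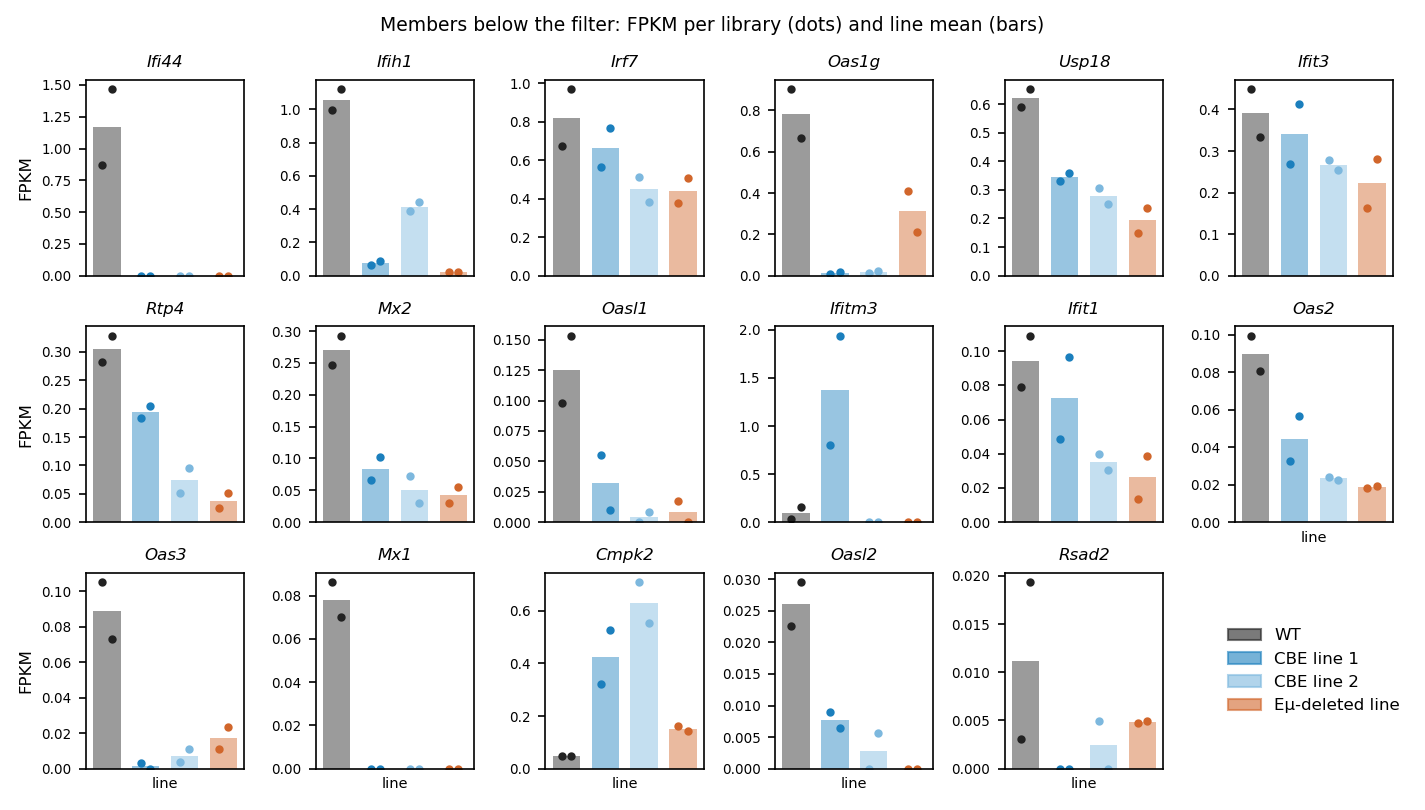
FPKM of the 17 members below the filter, 1 panel a gene with its own linear axis from 0, with dots for libraries and bars for line means (n = 2 each). The WT bar is the highest in 15 of the 17 panels, Cmpk2 and Ifitm3 being the exceptions.

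In the ubiquitin and ISG15 group, the modifier Isg15 was at 2.89 and 3.43 FPKM (WT), 1.48 and 2.92 (CBE line 1), 2.19 and 2.36 (CBE line 2) and 1.24 and 1.76 (Eµ-deleted). The CBE line 1 libraries spread across the WT and Eµ-deleted values, and neither difference from WT was called (-0.38, limma adjusted p = 0.218, and -0.74, limma adjusted p = 0.0578). With the replicate block the Eµ-deleted difference was called (0.0126), as it was with median-of-ratios scaling or quantile normalization. It was also called without either CBE line 1 library. The difference in the CBE lines was called without CBE line 1 replicate 2. Usp18, the protease that removes Isg15 and dampens receptor signalling, was below the filter at 0.591 and 0.651 FPKM in WT and at 0.150 to 0.359 in the others, with no overlap. The E3 ligases Trim21 (4.71 to 6.21 FPKM), Trim25 (18.7 to 22.4) and Dtx3l (11.8 to 13.6) were not called in any comparison.

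Of the ADP-ribosyltransferases, Parp9, the partner of Dtx3l, was at 16.3 to 19.1 FPKM and not called. Parp9 and Dtx3l overlap by 558 bases in the files' mm9 loci, and whether the counting used strand is not stated in the sources. Parp14 was at 3.89 and 4.004 FPKM (WT), 5.88 and 4.96 (CBE line 1), 4.17 and 4.08 (CBE line 2) and 4.14 and 3.92 (Eµ-deleted). Only the CBE line 1 libraries stood above the rest, by 0.37 over WT (SE 0.10, limma adjusted p = 0.0478). That call was lost in 5 of 8 fits that left out 1 library, namely either WT library, CBE line 1 replicate 1 or either CBE line 2 library (largest 0.227), and with a pseudocount of 0.1, no filter, median-of-ratios scaling or quantile normalization.

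Bst2 (tetherin) holds budding virions at the cell surface. It was at 3.95 and 4.03 FPKM (WT), 2.70 and 3.70 (CBE line 1), 6.69 and 5.55 (CBE line 2) and 7.83 and 11.1 (Eµ-deleted). The Eµ-deleted libraries were the highest, CBE line 2 lay between them and WT, and CBE line 1 was lowest, without overlap. The rise in the Eµ-deleted line over WT was 1.05 (SE 0.19, limma adjusted p = 0.00996), which was not called without WT replicate 1 (0.0676) or WT replicate 2 (0.0684). Over the CBE lines the rise was 0.92 (SE 0.16, limma adjusted p = 0.0134), which was not called without CBE line 2 replicate 2 (0.0545) or Eµ-deleted replicate 2 (0.0693). Between the CBE lines, line 2 was higher by 0.77 (SE 0.19, limma adjusted p = 0.0505), and with the replicate block this difference was called (0.0318).

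The entry inhibitor Ifitm3 was at 0.802 and 1.94 FPKM in CBE line 1, 0.0371 and 0.155 in WT, and was listed at 0 in the other 4 libraries. CBE line 1 thus had 73 implied reads and WT 5, a ratio of WT to CBE line 1 of 0.0702 (95% counting interval 0.0195 to 0.151). The WT reads were 1 and 4, a mean level under that of 3 reads a library, so no fold is given between WT and the lines listed at 0.

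Of the enzymes of nucleotide and lipid metabolism, 1 of 3 was tested. Samhd1, a dNTP hydrolase that starves reverse transcription, was at 3.93 and 2.93 FPKM (WT), 7.05 and 8.98 (CBE line 1), 8.59 and 8.2 (CBE line 2) and 4.17 and 4.10 (Eµ-deleted). All 4 CBE libraries stood well above the other 4. The rise in the CBE lines was 1.06 (SE 0.13, limma adjusted p = 0.00163), called in all 8 fits that left out 1 library, and the Eµ-deleted line was below the CBE lines by -0.84 (SE 0.13, limma adjusted p = 0.00788), a difference not called without Eµ-deleted replicate 2 (0.0542). Against WT the Eµ-deleted line differed by 0.22 (SE 0.15, limma adjusted p = 0.338).

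Cmpk2, a mitochondrial nucleotide kinase, was at 0.0480 and 0.0464 FPKM (WT), 0.324 and 0.528 (CBE line 1), 0.709 and 0.553 (CBE line 2) and 0.163 and 0.142 (Eµ-deleted). Both WT libraries were the lowest, and the level was 9.03 times that of WT in CBE line 1, 13.4 times in CBE line 2 and 3.23 times in the Eµ-deleted line, on 21 implied WT reads. The inverse ratios of WT to the line had 95% counting intervals of 0.0742 to 0.195, 0.0482 to 0.124 and 0.185 to 0.546, all below 1. Its neighbour Rsad2 (viperin; mm9 chromosome 12, 27127607 to 27141317, with Cmpk2 at 27154079 to 27164702) was at 0 to 0.0193 FPKM with 0 to 4 implied reads a library, too few to compare.

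Among the remaining members, Ifi27l2a, a small hydrophobic protein of the ISG12 family, had the highest level. It was at 58.0 and 45.0 FPKM (WT), 150.6 and 129.3 (CBE line 1), 94.7 and 67.3 (CBE line 2) and 133.0 and 77.8 (Eµ-deleted). Both WT libraries were the lowest, the Eµ-deleted libraries overlapped those of both CBE lines, and replicates of a line spread widely. The rise in the CBE lines was 1.03 (SE 0.25, limma adjusted p = 0.0268). The call ended without either WT library (0.0834 without the first, 0.211 without the second), without the first library of CBE line 1 (0.0676) or of CBE line 2 (0.0759), and with no filter (0.0513). In the Eµ-deleted line the difference was 0.98 (SE 0.28, limma adjusted p = 0.0525), and with the replicate block it was called (0.00315), as were CBE line 2 against WT (0.63, 0.0160) and against CBE line 1 (-0.80, 0.0115). Its locus overlaps that of Ifi27 by 6057 bases in the files (Ifi27 mean 71.8 FPKM), so its values are uncertain. By sequence, however, 0% of the 75-base windows of its GENCODE transcripts occur in another gene.

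Xaf1, a pro-apoptotic XIAP partner, was at 14.6 and 14.8 FPKM (WT), 11.7 and 12.8 (CBE line 1), 13.6 and 14.7 (CBE line 2) and 11.01 and 11.4 (Eµ-deleted). WT and CBE line 2 overlapped, and the Eµ-deleted libraries were lowest (-0.36 against WT, SE 0.093, limma adjusted p = 0.0380). That call was kept in 2 of 8 fits that left out 1 library, those without a CBE line 1 library, and the largest adjusted p was 0.196, without WT replicate 2. Ifi35 was at 25.1 to 34.6 FPKM and was not called.

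Ifi44 (mm9 chromosome 3, 151393886 to 151412923) was detected in WT alone. It was at 0.872 and 1.47 FPKM in WT, from 208 and 223 implied reads, and was listed at 0 in all 6 other libraries. Against the level of 3 reads in a library, WT was at least 57.4-fold higher than CBE line 1, 60.5-fold higher than CBE line 2 and 59.9-fold higher than the Eµ-deleted line. Rtp4, a receptor transporter, was at 0.282 and 0.329 FPKM (WT), 0.184 and 0.206 (CBE line 1), 0.0519 and 0.0955 (CBE line 2) and 0.0245 and 0.0516 (Eµ-deleted). Each WT library exceeded every other library, and 10.5% of the windows of Rtp4 are shared with Gm45338.

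**Figure D3:**
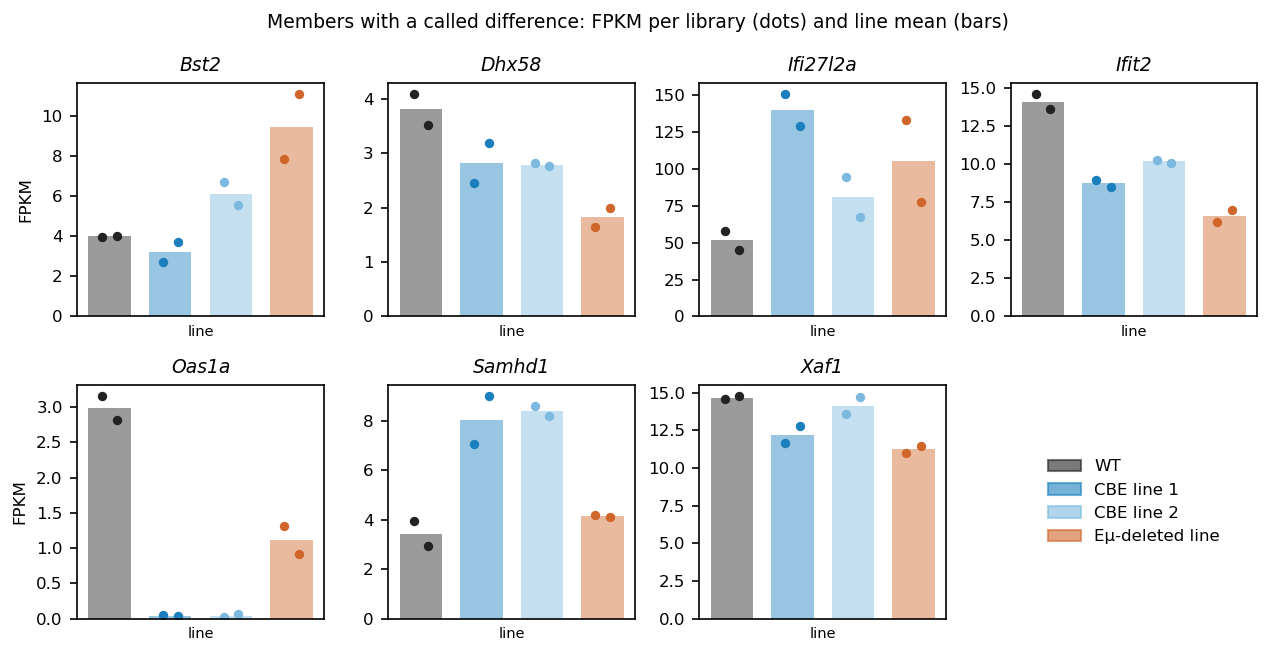
FPKM of the 7 members called in at least 1 of the 4 main comparisons, with dots for libraries and bars for line means (n = 2 each), each panel on its own linear axis from 0. Oas1a falls to near 0 in both CBE lines and to about 1 FPKM in the Eµ-deleted line, while Samhd1 is high in both CBE lines only.

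The 17 members below the filter were also described in a fit of all genes with FPKM above 0 in some library, chosen after it was seen how many members the filter left out. In that fit 11 of 17 were lower in the CBE lines than in WT and 1 (Cmpk2) was higher, where 9.28% and 7.97% of the 5811 genes below the filter were called. In the Eµ-deleted line 11 of 17 were lower and 0 higher, where 8.07% and 4.49% were called. At an unadjusted threshold of 0.05 limma also called 0 higher, the 1 member with a positive difference being Cmpk2 (adjusted p = 0.305). The limma adjusted p of these 11 was 9.83e-05 to 0.0185 in the first comparison and 6.83e-05 to 0.0284 in the second, and a gene at 0 in all mutant libraries, as Ifi44 and Mx1, had no spread there, which lowers its estimated spread. The 11 were the same genes in both comparisons, which share the WT libraries: Ifi44, Ifih1, Mx1, Mx2, Oas1g, Oas2, Oas3, Oasl1, Oasl2, Rtp4 and Usp18. Of these, 7 (Ifi44, Ifih1, Mx1, Mx2, Oas3, Rtp4 and Usp18) were called in both comparisons under all 14 alternatives to this fit. The call of Oas1g in the Eµ-deleted line was lost in 6 of these 14, without WT replicate 1, any 1 CBE library or Eµ-deleted replicate 2 (largest limma adjusted p = 0.120).

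The calls of Oasl1, Oasl2 and Oas2 depended on single libraries too. Oasl1 was lost in the CBE comparison without WT replicate 2 or either CBE line 2 library (largest limma adjusted p = 0.102) and in the Eµ comparison also without either Eµ-deleted library (0.107). Oasl2 was lost without WT replicate 2 in the CBE comparison (largest 0.141), without Eµ-deleted replicate 2 in the Eµ comparison (0.123), and without the trend in both. Oas2 was lost without WT replicate 1 in the CBE comparison (0.0653). Ifit1 was not called in the Eµ-deleted line (limma adjusted p = 0.0722), but 12 rather than 11 members were lower there with the replicate block, the additional one being Ifit1.

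The same libraries were also compared by position. Both WT libraries exceeded all 6 others for 11 of the 17 members below the filter, against 12.5% of the genes below it, and lay under all 6 for 1, Cmpk2, against 6.14%. For the 22 tested members, both WT libraries were highest for 4 (Ifit2, Oas1a, Dhx58 and Eif2ak2), against 14% of tested genes, and lowest for 4 (Irf1, Ifi27l2a, Samhd1 and Zc3hav1), against 18.2%. The median over the 17 low members was 0.105 and 0.155 FPKM (WT), 0.0551 and 0.0872 (CBE line 1), 0.0243 and 0.0228 (CBE line 2) and 0.0183 and 0.0235 (Eµ-deleted). The median over the 22 tested members was 7.52 to 9.60 FPKM in all libraries.

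**Figure D4:**
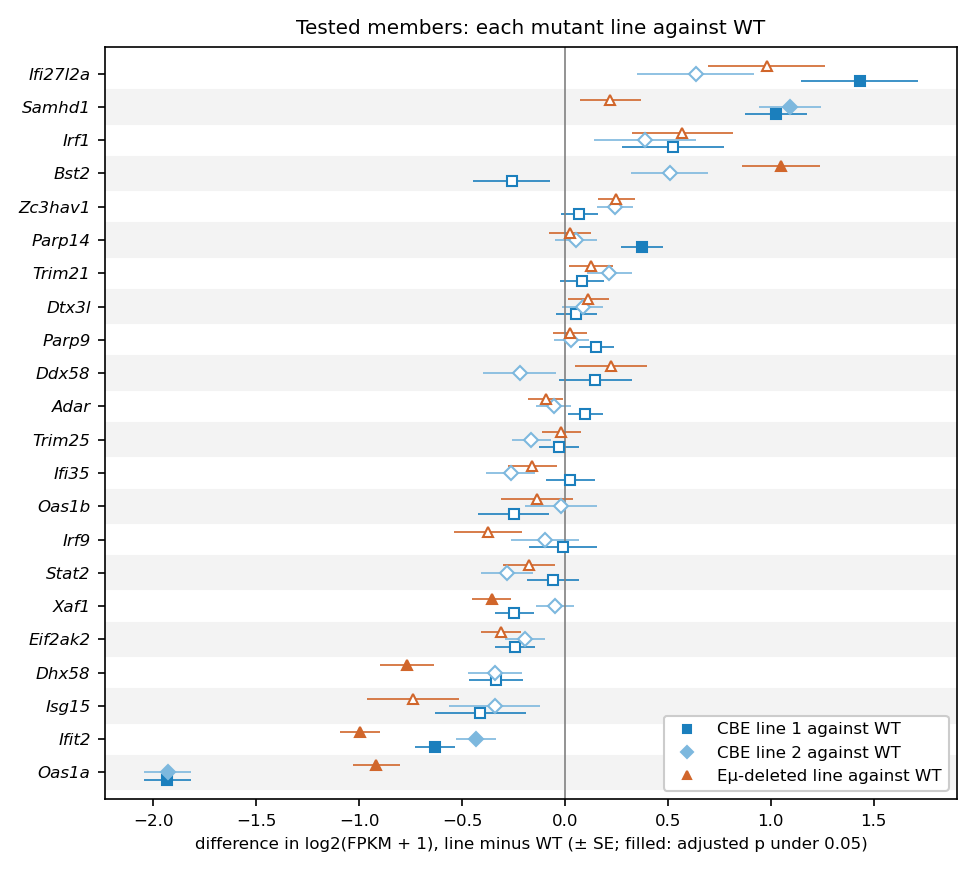
Log2 difference in FPKM + 1 of each mutant line from WT for the 22 tested members, with SE as bars and filled symbols for an adjusted p under 0.05. Most members lie within 0.5 of 0 in all 3 lines, with Oas1a and Ifit2 farthest to the left and Ifi27l2a, Samhd1 and Bst2 farthest to the right.

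Between the mutant lines, the Eµ-deleted line had 2 of 22 tested members higher than the CBE lines (Oas1a and Bst2) and 2 lower (Samhd1 and Ifit2), where 5.16% and 7.25% of all tested genes were called. The Ifit2 difference was -0.46 (SE 0.084, limma adjusted p = 0.0150), not called without CBE line 2 replicate 1 or replicate 2 (largest 0.0769). Dhx58 was called lower with the replicate block (0.0383) and not without it (-0.43, limma adjusted p = 0.0552). Between the CBE lines, 0 tested members were called in either direction by limma, where 5.17% of all tested genes were higher and 5.03% lower in line 2. With an unadjusted p under 0.05, 1 was higher and 3 were lower. Of the members below the filter, 1 was higher in CBE line 2 than in line 1 (Ifih1; 5.94% of genes below the filter) and 2 were lower (Ifitm3 and Rtp4; 2.63%). Between the Eµ-deleted line and the CBE lines, 1 was higher in the former (Oas1g; 3.61%) and 3 were lower (Cmpk2, Ifih1 and Rtp4; 5.21%). Both Ifih1 calls held under all 14 alternatives. The others were lost when single libraries were left out: between the CBE lines, Ifitm3 was lost under 7 of the 14, without any 1 WT, CBE line 2 or Eµ-deleted library or with a pseudocount of 5 (largest limma adjusted p = 0.158), and Rtp4 under 7, without any 1 WT or CBE library or without the trend (0.143). Between the Eµ-deleted line and the CBE lines, Cmpk2 was lost without either WT library, CBE line 2 replicate 1 or either Eµ-deleted library (largest 0.118). There Oas1g was kept under 4 of the 14 (largest 0.133) and Rtp4 under 5 (0.108), and each was lost without either WT library and without most of the other single libraries.

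The genes upstream of the set were expressed in every line. All 16 listed receptors, kinases, signalling factors and their inhibitors were tested. Of these, 5 rose and 0 fell in the CBE lines against WT (median 0.14), and 6 rose and 0 fell in the Eµ-deleted line (median 0.28). Over all tested genes 12.5% rose and 9.78% fell in the first comparison, and 11.3% and 10.4% in the second. Without either WT library the 5 became 3, Ifngr1 and Jak1 being lost, and the 6 became 1, Ifngr2. Ifnar1, a chain of the type I interferon receptor, was at 8.99 and 8.5 FPKM (WT), 18.2 and 16.8 (CBE line 1), 16.7 and 15.0 (CBE line 2) and 13.3 and 16.4 (Eµ-deleted). Both WT libraries were below all others, and Ifnar1 was higher by 0.86 in the CBE lines (SE 0.11, limma adjusted p = 0.00170) and by 0.69 in the Eµ-deleted line (SE 0.12, limma adjusted p = 0.00950), the latter not called without either WT library (largest 0.0823). Its partner Ifnar2 was at 21.3 to 35.5 FPKM and was not called.

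Ifngr2, a chain of the interferon gamma receptor, was higher by 0.94 in the CBE lines and 0.68 in the Eµ-deleted line (limma adjusted p = 0.000440 and 0.00434), called in all 8 fits that left out 1 library in each. Il10rb, a receptor chain shared by interferon lambda and IL-10, was higher by 1.30 in the CBE lines (limma adjusted p = 0.000277) and 0.71 in the Eµ-deleted line (0.00957, not called without either WT library, largest 0.0748), and was lower in the Eµ-deleted line than in the CBE lines (-0.59, 0.0157, not called without either CBE line 2 library, largest 0.0719). Cish, a cytokine signalling inhibitor, was higher in the Eµ-deleted line by 1.83 (SE 0.45, limma adjusted p = 0.0300), called in 3 of 8 fits that left out 1 library, and was lost without either WT library, either CBE line 2 library or Eµ-deleted replicate 2.

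Of 24 listed adaptors, kinases and related factors of nucleic acid sensing, 21 were tested. In the CBE lines 2 rose and 2 fell, where 12.5% and 9.78% of all tested genes were called. In the Eµ-deleted line 1 rose and 3 fell, where 11.3% and 10.4% were called. All of these calls in both comparisons were lost without either WT library. Rnaseh2c, an RNase H2 subunit, fell by 0.62 in the CBE lines (limma adjusted p = 0.0455) and by 0.81 in the Eµ-deleted line (0.0315), from 124.5 and 112.9 FPKM in WT to 55.8 to 103.9 in the others. The first was kept in 2 of 8 fits that left out 1 library, those without an Eµ-deleted library, and the second in 5 of 8, being lost without either WT library or Eµ-deleted replicate 2. Irf3, the factor that responds first to RNA sensing, was at 32.5 to 48.4 FPKM and was not called in any comparison.

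Between the CBE lines, Tmem173 (STING) was lower in line 2 by -0.89 (limma adjusted p = 0.0179), and Irf2 and Irf4 were higher by 0.80 (0.0180) and 0.69 (0.0432). Each of these calls was lost without CBE line 1 replicate 1 or either CBE line 2 library, that of Tmem173 also without CBE line 1 replicate 2, and that of Irf4 also without either WT library. Of 19 listed interferon ligands 17 were found. All 17 were at or below 0.122 FPKM in every library, and 14, Ifnb1 and Ifng among them, were listed at 0 in all 8. The ligands summed to 0.140 to 0.243 FPKM (WT), 0.0555 to 0.0841 (CBE line 1), 0.0427 to 0.0594 (CBE line 2) and 0.0474 to 0.115 (Eµ-deleted). Ifnz was at 0.116 and 0.122 FPKM in WT and at 0.0427 to 0.0841 in the others. Ifna9 was detected in WT replicate 2 only, and Ifnab in both WT libraries and Eµ-deleted replicate 2. The part of these ligands in the results was not tested.

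Markers of other cell types were measured beside these genes. The 6 macrophage and monocyte markers summed to 3.67 to 7.41 FPKM (WT), 3.86 to 8.88 (CBE line 1), 1.64 to 2.43 (CBE line 2) and 2.09 to 3.21 (Eµ-deleted), with Csf1r and Cd14 at or below 0.0360 FPKM in every library. The remaining markers did not move together. Itgam (CD11b) was at 0.293 and 0.120 FPKM (WT), 1.65 and 1.23 (CBE line 1), 1.66 and 1.17 (CBE line 2) and 0.570 and 0.616 (Eµ-deleted). It reached 1 FPKM in the CBE libraries only, and so passed the filter through the lines in which it was called higher. Its difference from WT in the CBE lines was 1.01 (SE 0.13, limma adjusted p = 0.00179), in the direction that the filter favours. Lyz2 (lysozyme), most of the sum in WT and CBE line 1, was at 6.36 and 3.15 FPKM (WT), 7.19 and 2.56 (CBE line 1), 0.749 and 0.440 (CBE line 2) and 2.58 and 1.40 (Eµ-deleted). It was lower than WT in CBE line 2 by -1.80 (SE 0.44, limma adjusted p = 0.0336), not called without either WT library or either CBE line 2 library (largest 0.188). Fcgr1, an Fc receptor below the filter, was at 0.702 and 0.392 FPKM in WT and at 0.0149 to 0.0741 in the other 6 libraries, without overlap. The 5 T and NK markers summed to 1.90 to 2.51 FPKM in WT and 0.400 to 1.09 in the others. Almost all of that was Klrb1c (NK1.1 family), which passed the filter through both WT libraries and CBE line 2 replicate 1. It was lower than WT in the CBE lines (-0.83, limma adjusted p = 0.00300) and in the Eµ-deleted line (-0.86, 0.00580), the direction that the filter favours. The latter was not called without WT replicate 2. Cd3d, below the filter, was at 0.108 and 0.123 FPKM in WT and at 0 to 0.0157 in the others. Cd3g was at 0.0269 FPKM in WT replicate 1 and at 0 elsewhere, while Cd3e and Ncr1 were listed at 0 in all 8 libraries. The macrophage sums did not separate WT from CBE line 1, and the T and NK sums separated WT from every line. The part of either in the results was not tested.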

How the data were processed

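Poly(A) RNA of 8 libraries (4 lines, 2 each) was read as single 75-base reads, per the labels' protocols. The deposited values are FPKM per gene with an interval and a status, per the file headers, made by the authors with TopHat and Cufflinks on mm9, per the submitters' processing notes. No source used here gives tool versions or the use of strand. FPKM of entries with 1 symbol were summed, and 21 symbols with another status in any library were left out of the fit. Implied reads were taken from each interval as 2 SD a side, and the floor of 3 reads reflects counting error alone.

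The 10479 genes that reached 1 FPKM in 2 or more libraries were fitted as log2(FPKM + 1) in limma 3.58.1 (R 4.3.3) with a trended prior (2.65 degrees of freedom, beside 4 residual) and Benjamini-Hochberg adjustment at 0.05. A line left with 1 library was assumed to vary like the others. The fit was tested on simulated data. Library numbers pair by data only: deviations of same-numbered libraries correlated at 0.279 to 0.502 in all 6 pairs of lines, so the replicate block is printed where it changes a call.

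The members and lists were chosen with earlier results of these data known. Named with all values were members called in at least 1 of 4 main comparisons, and further members chosen after their values were seen. Up to 4 called genes of each related list were named, and always Ifnar1, Ifnar2 and Irf3; 1 further gene that this rule names is not reported here. Shared sequence was counted over 75-base windows of GENCODE M21 transcripts, chosen after seeing the data. Gene positions are mm9 as the files give them, and promoters are RefSeq GRCm38.p6.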

Additional observations from a re-analysis of the deposited data

Results flagged for a closer look

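For 4 tested members the Eµ-deleted line and the CBE lines differed from each other in limma's direct contrast, that is, their differences from the shared WT libraries were unequal. Of the 22 tested members 2 were higher and 2 lower, where 5.16% and 7.25% of all tested genes were called. Oas1a was higher in the Eµ-deleted line by 1.01 (log2 of FPKM + 1, adjusted p = 0.000997) and Bst2 by 0.92 (adjusted p = 0.0134). Samhd1 was lower there by a difference of -0.84 (adjusted p = 0.00788) and Ifit2 by a difference of -0.46 (adjusted p = 0.0150). In each case both Eµ-deleted libraries lay outside the range of the 4 CBE libraries. The calls of Bst2, Samhd1 and Ifit2 were each lost in fits that left out a single library, as given above.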

How the results depend on the processing

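The counts of called members rest on few genes. Higher in the CBE lines than in WT were 2 (1 to 3 when 1 library was left out), and lower were 2 (1 to 4), 13 with no filter or with a pseudocount of 0.1 and no filter, and 1 with a mean FPKM of 5 or more, where Oas1a was not tested. Higher in the Eµ-deleted line than in WT was 1 (0 to 4), and 2 with quantile normalization or the replicate block. Lower there were 4 (2 to 5), 15 with no filter at either pseudocount, and 2 with a mean FPKM of 5 or more. Between the CBE lines 0 were higher (0 to 1), and 1 with a pseudocount of 0.1, no filter, a pseudocount of 0.1 with no filter, median-of-ratios scaling, quantile normalization, limma without the trend or the replicate block. Lower were 0, and 2 with no filter at either pseudocount or 1 with the replicate block. Against the CBE lines, the Eµ-deleted line had 2 higher (1 to 4), and 1 with a mean FPKM of 5 or more, and 2 lower (1 to 3), 5 with no filter and 6 with a pseudocount of 0.1 and no filter. With the replicate block, 6 members were lower in the Eµ-deleted line than in WT, Eif2ak2 and Isg15 being the additional ones. The members below the filter account for the rise in counts with no filter. Their 11 lower genes became 9 to 12 in the CBE lines and 8 to 13 in the Eµ-deleted line over all settings. No called difference changed sign, and neither scaling moved the median of all genes by 0.1 or more. The block changed no calls other than those given in the report. Among the members, depth in WT limits Rsad2 and Ifitm3 (5 implied reads each) and Oasl2 (11) the most.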
